A study of Mus musculus with 12 samples.

Results

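Lipoprotein lipase (Lpl) and 9 genes of lipid uptake, storage and cholesterol efflux were examined in mouse bone marrow macrophages (BMMs) treated with a neutralizing antibody to ITGA5, the alpha 5 integrin chain that binds fibronectin. The members were the rows named Lpl, Cd36, Fabp4, Fabp5, Pparg, Plin2, Apoe, Abca1, Abcg1 and Nr1h3. These are 10 of the 54532 genes in the deposited tables, of which 27574 had a count in at least 1 library. Lpl was chosen by its readout, the opposite antibody effects without and with fibronectin, so its values below are a description and carry no test. All 10 members passed the filter on low counts in every comparison.

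The BMMs came from wild-type C57BL/6J mice aged 2 to 3 months and were grown with 12 ng/ml and then 120 ng/ml CSF-1, the macrophage growth factor. They were passaged onto uncoated plates or plates coated with 10 µg/ml fibronectin, grown to confluence, and incubated for 24 h with 10 µg/ml control IgG or 10 µg/ml anti-ITGA5. Each of the 4 combinations of antibody (IgG or anti-ITGA5) and plate (without or with fibronectin) had 3 libraries. Serum was present during culture in all groups, and no group went without an antibody. The study describes the replicates of a group as independent biological experiments, while the labels do not say which mice or cultures they came from, so the p-values measure the spread between these libraries.

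Macrophages take up fatty acids set free from triglyceride-rich lipoproteins by lipoprotein lipase, and also through the scavenger receptor CD36. Fatty acid binding proteins carry them within the cell, and perilipin 2 coats the droplets in which neutral lipid is stored. Surplus cholesterol leaves through the transporter ABCA1 to lipid-poor apolipoproteins such as APOE and through ABCG1 to HDL particles. Lipid-sensing nuclear receptors control much of this program: PPARG (encoded by Pparg) on the uptake side and LXR alpha (encoded by Nr1h3) on the efflux side.

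Total counts ranged from 12954342 to 22075432 per library. Library 2 of anti-ITGA5 without fibronectin stood apart, with the lowest total, the most genes with a count (21123 against 19542 to 20426 in the others), and an SD of the log2 CPM difference to its replicates of 0.527 and 0.565, against 0.317 to 0.386 for all other pairs of replicates. The defining macrophage markers were present: 10 of 10 had at least 856 counts in every library. Of 8 adipocyte markers, 7 had at most 10 counts in every library, and Lep, Plin1 and Adrb3 were at 0. The lists for stromal, endothelial, dendritic cells and neutrophils each summed to at most 4.43 FPKM in every library. Upon ITGA5 neutralization the summed FPKM of the macrophage markers, most of it from Lyz2, was lower. It ranged from 9350 to 10200 in IgG and from 6440 to 7890 in anti-ITGA5 without fibronectin, and from 9970 to 10200 and from 7730 to 7880 with fibronectin. On each coating 5 of the 10 markers passed the test as lower and 1 as higher, and the part of this shift in the results below was not tested. In bulk RNA, fewer cells expressing a gene and less RNA per cell cannot be told apart.

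Itga5 mRNA was 46.1 ± 2.57 FPKM (fragments per kilobase of gene, scaled to the depth of the library; SD, n = 3) in IgG and 51 ± 1.94 in anti-ITGA5 without fibronectin, and 46.9 ± 1.88 and 49.4 ± 2.49 with fibronectin. It did not pass the edgeR test on either coating (adjusted p = 0.0906 and 0.273). The antibody acts on the protein, so this level does not check the labels.

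On the FPKM scale the 10 genes covered a wide range of levels in IgG without fibronectin. The order of the means was Apoe (693), Cd36 (497), Plin2 (426), Fabp5 (115), Lpl (84.8), Fabp4 (7.3), Abca1 (6.52), Pparg (6.49), Abcg1 (2.39) and Nr1h3 (2.22). This order depends on the annotated gene length, 10478 bases for Lpl and 3567 for Fabp5. By counts in this group Lpl (15220 to 15987) lay above Fabp5 (6742 to 7828). The libraries of Cd36 and Plin2 overlapped, as did those of Fabp4, Abca1 and Pparg, and those of Abcg1 and Nr1h3. The per-library values are shown in the plot of FPKM by group.

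**Figure D1:**
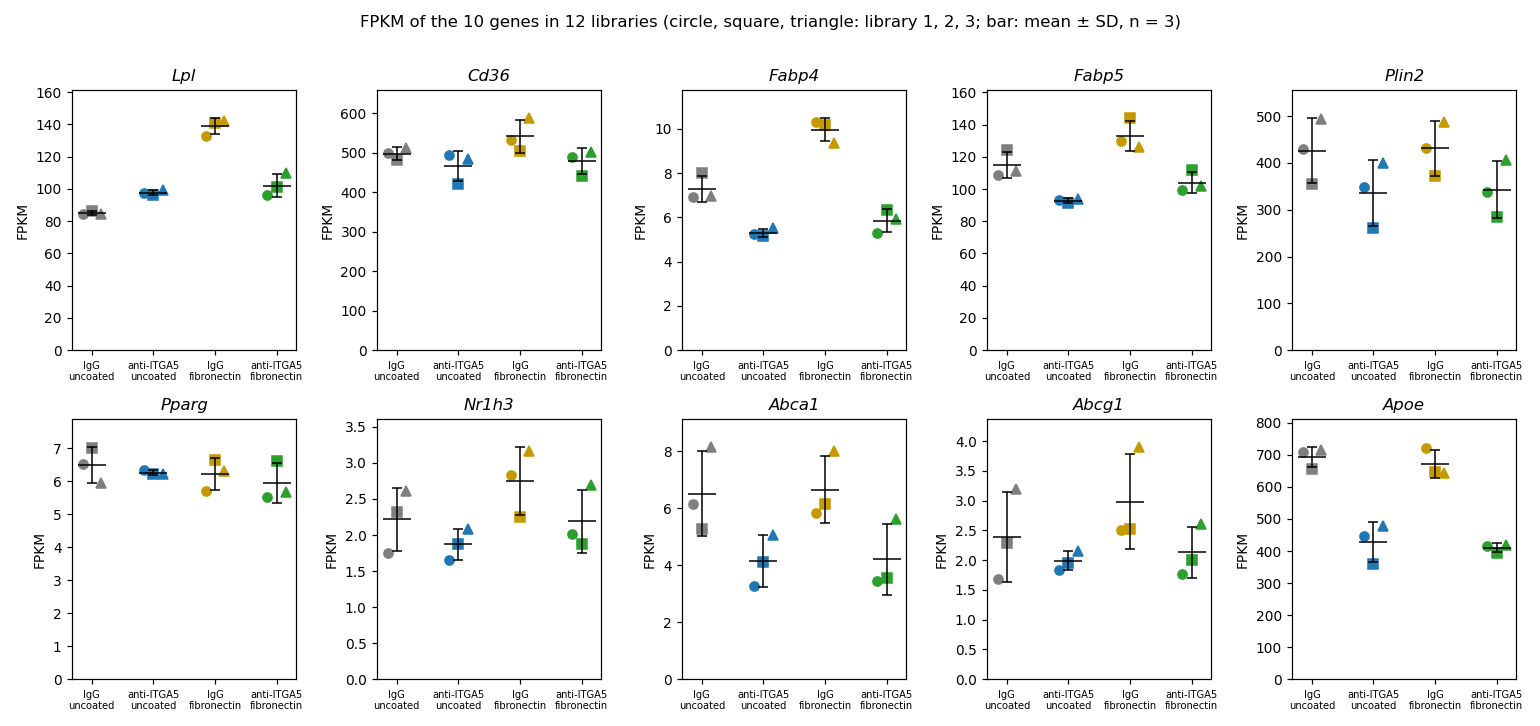
FPKM (vertical axes, from 0) of each of the 10 genes in the 4 groups, with the 3 libraries of a group as a circle, square and triangle and the black bars as mean ± SD (n = 3). Lpl was highest in IgG with fibronectin (139 ± 4.79 FPKM), while Apoe was lower in both anti-ITGA5 groups (428 ± 61.6 and 410 ± 13.8) than in both IgG groups (693 ± 31.2 and 671 ± 43.3).

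Promoter letters were read for every member with an entry in the table used. RefSeq promoter windows (GRCm38.p6) were matched for 6 of the 10 members (Abca1, Apoe, Plin2, Cd36, Pparg and Nr1h3), with 11 windows in all; Lpl, Fabp4, Fabp5 and Abcg1 had no entry. The 6 include Pparg and Nr1h3, which did not pass the test on either coating, and leave out Fabp4 and Fabp5, which fell on both. Each window ran from 250 bases before to 50 bases after a start site. Both strands were searched for AGGTCA, the hexamer read by nuclear receptors, for its direct repeat after 1 base (the PPAR and RXR arrangement) or after 4 bases (the LXR and RXR arrangement), and for TATAAA, the TATA box. The repeats contain the hexamer, so those searches overlap. The 250 bases before the start are printed for Abca1, Apoe and Plin2, which fell upon ITGA5 neutralization on at least 1 coating and whose first window lies within 1 base of the gene start in the count table. Matches are in capitals, AGGTCA on the opposite strand reading TGACCT.
Abca1 promoter, chr4:53159896-53160145, minus strand: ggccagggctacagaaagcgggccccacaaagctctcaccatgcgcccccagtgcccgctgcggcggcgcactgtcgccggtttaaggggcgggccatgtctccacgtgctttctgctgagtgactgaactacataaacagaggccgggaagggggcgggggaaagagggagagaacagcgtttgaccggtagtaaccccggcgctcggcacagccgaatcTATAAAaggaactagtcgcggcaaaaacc
Apoe promoter, chr7:19699189-19699438, minus strand: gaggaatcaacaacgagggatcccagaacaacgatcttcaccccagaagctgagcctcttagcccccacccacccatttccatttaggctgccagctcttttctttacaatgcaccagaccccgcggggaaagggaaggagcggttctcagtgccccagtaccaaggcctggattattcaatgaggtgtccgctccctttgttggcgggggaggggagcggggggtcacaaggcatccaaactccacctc
Plin2 promoter, chr4:86670060-86670309, minus strand: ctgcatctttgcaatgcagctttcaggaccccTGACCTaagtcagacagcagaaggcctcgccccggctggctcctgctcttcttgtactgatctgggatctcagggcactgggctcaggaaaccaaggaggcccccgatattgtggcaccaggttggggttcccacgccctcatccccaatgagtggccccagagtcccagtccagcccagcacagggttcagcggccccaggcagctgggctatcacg
Abca1 held TATAAA at position -29, counted from the start site, Plin2 held AGGTCA on the opposite strand at position -218, and the first Apoe window held neither. Of the windows not printed, AGGTCA was in that of Cd36 and in 2 of 3 of Pparg, and TATAAA was in 1 of the other 2 of Apoe and in 1 of Pparg; the Nr1h3 windows held neither. Across 32851 promoter windows of the same length, 16.3% held AGGTCA and 13.6% held TATAAA. Neither direct repeat was found in any of the 11 windows. Only exact copies were searched, and these were found in 0.0396% (1 base between) and 0.0152% (4 bases between) of all windows. Their absence from 11 windows therefore cannot tell whether a looser site is present. These matches describe letters in a window and say nothing of binding.

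Lpl encodes the lipase that releases fatty acids from circulating triglyceride. Its values were 84.1, 86.3 and 84.2 FPKM in IgG without fibronectin and 97.6, 95.9 and 99.3 in anti-ITGA5 without fibronectin. With fibronectin they were 133, 141 and 142 in IgG and 96.3, 101 and 110 in anti-ITGA5. The 3 IgG libraries with fibronectin lay above all the others and the 3 IgG libraries without it below all the others, while both anti-ITGA5 groups overlapped. The log2 fold change upon ITGA5 neutralization was 0.21 (SE 0.0472) without fibronectin and -0.44 (SE 0.0502) with fibronectin, and the difference between these effects was -0.65 (SE 0.07). The summed FPKM of 6 osteoclast markers, nearly all from Acp5 and Ctsk, was also highest in IgG with fibronectin: 5.96 to 7.34, against 4.13 to 5.25 in IgG without it, and 3 to 4.21 and 3.09 to 5.74 in anti-ITGA5 without and with it. Of these markers 1 of the 3 tested was called lower upon neutralization with fibronectin, 2 of the 6 had at most 10 counts in every library, and Calcr was at 0. The part of these markers in the Lpl values was not tested.

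Fibronectin against no coating gave a log2 fold change for Lpl of 0.70 (SE 0.0361) in IgG and 0.06 (SE 0.0615) in anti-ITGA5. Each IgG and each anti-ITGA5 group enters both an antibody and a coating comparison, so these values restate the same 12 libraries and are not independent. Lpl lies at chr8:68880491-68907448 on the plus strand (mm10), and no other annotated gene overlapped it.

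Among the 9 other members, the antibody effect had the same sign on both coatings (Pparg and Abcg1 turned to 0.01 and 0.0062 without fibronectin when IgG library 2 or 3, respectively, was left out). Upon ITGA5 neutralization without fibronectin 4 of 9 fell (Apoe, Abca1, Fabp4 and Fabp5) and none rose by edgeR's quasi-likelihood test at an adjusted p of at most 0.05; among all 12924 genes tested 9.79% were lower and 11% higher. With fibronectin 6 of 9 fell (the same 4 with Plin2 and Cd36) and none rose, against 13.2% lower and 14.4% higher of 12916 genes. All 9 log2 fold changes were below 0 on both coatings, with a median of -0.30 without and -0.36 with fibronectin, against 0.009 and -0.0038 over all genes tested. The libraries of the 2 antibody conditions did not overlap for 4 of 9 members without fibronectin (38.2% of all genes) and 5 of 9 with it (42.4%). The 2 antibody comparisons share no library, but the members were chosen with earlier results of these data known, so the counts are not independent evidence of a direction.

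**Figure D2:**
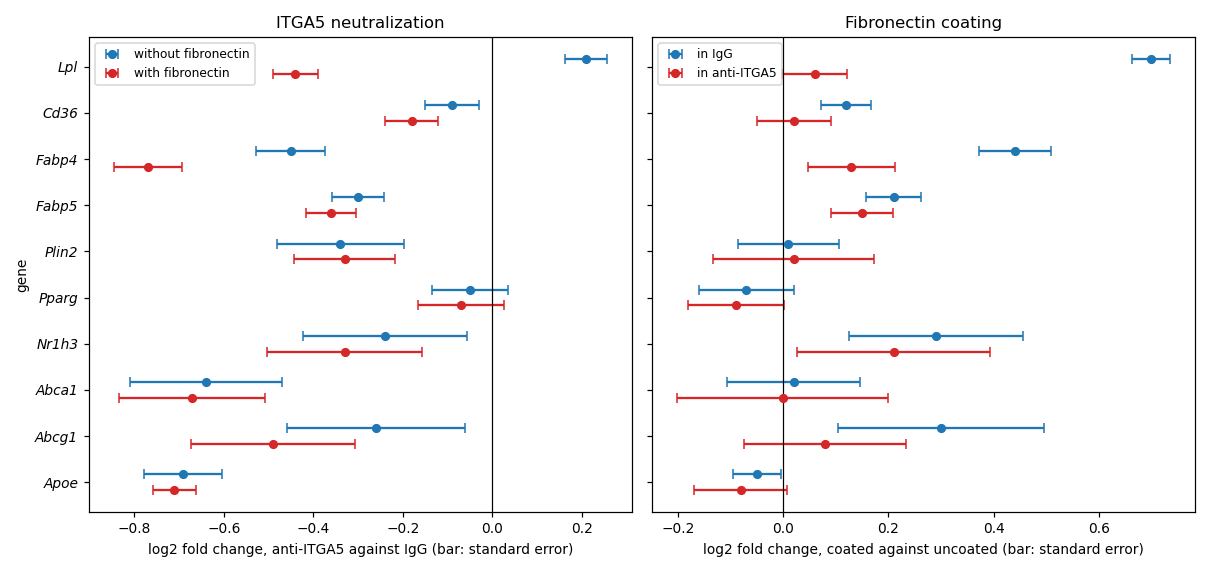
Log2 fold changes (horizontal axes) of the 10 genes with their standard errors as bars, for ITGA5 neutralization without and with fibronectin (left) and for fibronectin coating in IgG and in anti-ITGA5 (right). Lpl lies on opposite sides of 0 in the left panel (0.21 and -0.44), and the other 9 genes lie below 0 for both coatings.

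Apoe, the apolipoprotein that macrophages secrete to accept cholesterol, fell on both coatings. Its values were 708, 657 and 714 FPKM in IgG and 448, 359 and 478 in anti-ITGA5 without fibronectin, and 721, 648 and 645 against 416, 394 and 419 with fibronectin. Every anti-ITGA5 library lay below every IgG library. The log2 fold change was -0.69 (SE 0.0871, adjusted p = 0.000356) without fibronectin and -0.71 (SE 0.0479, adjusted p = 2.2e-06) with it. The call without fibronectin was lost by limma on log2(FPKM + 1) without a filter on low values (adjusted p = 0.0531).

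Abca1 encodes the transporter that loads lipid onto lipid-poor apolipoproteins, and it too was lower on both coatings. It measured 6.14, 5.28 and 8.15 FPKM in IgG and 3.27, 4.11 and 5.07 in anti-ITGA5 without fibronectin. With fibronectin it measured 5.83, 6.14 and 8 in IgG and 3.45, 3.54 and 5.64 in anti-ITGA5. The groups did not overlap on either coating, although the spread within a group was wide. The log2 fold changes were -0.64 (SE 0.17, adjusted p = 0.022) and -0.67 (SE 0.163, adjusted p = 0.00902), and with DESeq2 neither passed (adjusted p = 0.0667 and 0.0582). Without fibronectin the edgeR call was also lost without IgG library 1 or 3 or anti-ITGA5 library 1 (adjusted p = 0.0638, 0.103 and 0.0766), and with fibronectin without anti-ITGA5 library 1 (adjusted p = 0.0555).

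Abcg1, the transporter that passes cholesterol to mature HDL, measured 1.68, 2.29 and 3.2 FPKM in IgG and 1.84, 1.96 and 2.16 in anti-ITGA5 without fibronectin. With fibronectin it was 2.5, 2.53 and 3.9 in IgG and 1.77, 2.01 and 2.6 in anti-ITGA5. The groups overlapped on both coatings. The log2 fold changes of -0.26 (SE 0.199) and -0.49 (SE 0.183) did not pass the test (adjusted p = 0.399 and 0.0653 by edgeR), at 110 to 294 counts per library. With fibronectin it passed without IgG library 2 (-0.60, adjusted p = 0.0453) or without anti-ITGA5 library 3 (-0.65, adjusted p = 0.00922). Over all fits with 1 library left out, the value with fibronectin ran from -0.65 to -0.25. With the library number as a block in the edgeR fit it was -0.48 and passed (adjusted p = 0.000876).

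Fabp4, a fatty acid carrier and textbook PPARG target, had values of 6.92, 7.99 and 6.99 FPKM in IgG and 5.24, 5.18 and 5.52 in anti-ITGA5 without fibronectin. With fibronectin these were 10.3, 10.2 and 9.38 in IgG and 5.31, 6.33 and 5.94 in anti-ITGA5. The IgG and anti-ITGA5 libraries were fully separate on each coating, and the IgG libraries with fibronectin were the highest. Fabp4 fell by 0.45 (SE 0.0769, adjusted p = 0.00227) on the log2 scale without fibronectin and by 0.77 (SE 0.0759, adjusted p = 1.7e-05) with it, both by edgeR. The difference between the effects was -0.32 (SE 0.11), with an unadjusted p of 0.0107 that did not pass after adjustment over all genes (adjusted p = 0.9997).

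Fabp5, the related carrier that is the more abundant of the pair in these cells by FPKM, also fell on both coatings. It measured 109, 124 and 111 FPKM in IgG and 93.4, 91.1 and 93.8 in anti-ITGA5 without fibronectin, and 130, 144 and 126 against 99.2, 112 and 102 with fibronectin. The antibody groups were separate on each coating. The log2 fold changes were -0.30 (SE 0.0587, adjusted p = 0.00477) and -0.36 (SE 0.0567, adjusted p = 0.000578). Fabp4 (chr3:10204088-10208576, minus strand) and Fabp5 (chr3:10012548-10016607, plus strand) belong to one gene family, and how reads that fit several copies were counted is not given in the sources used here.

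Cd36, the scavenger receptor for oxidized lipoprotein and fatty acids, had small differences. It measured 499, 480 and 512 FPKM in IgG and 493, 421 and 483 in anti-ITGA5 without fibronectin, and the groups overlapped. With fibronectin it measured 531, 505 and 587 against 490, 441 and 502, without overlap. The log2 fold changes were -0.09 (SE 0.0599, adjusted p = 0.342) and -0.18 (SE 0.0595, adjusted p = 0.0387), the second passing the edgeR test. That call was lost without IgG library 1 or 3 or anti-ITGA5 library 1 or 2 (adjusted p from 0.0789 to 0.156), and with total counts or all 12 libraries in 1 fit.

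Plin2, the droplet coat protein, measured 429, 354 and 494 FPKM in IgG and 349, 261 and 399 in anti-ITGA5 without fibronectin. With fibronectin it measured 433, 372 and 488 against 338, 284 and 407. The groups overlapped on both coatings. The log2 fold changes were -0.34 (SE 0.142, adjusted p = 0.122) and -0.33 (SE 0.112, adjusted p = 0.0441), the second passing by edgeR and not by DESeq2 (adjusted p = 0.197). It was also lost without IgG library 1 or 3 or anti-ITGA5 library 1 or 2 (adjusted p from 0.117 to 0.176). Without fibronectin Plin2 passed without anti-ITGA5 library 3 (-0.48, adjusted p = 0.0341) and with every gene of at least 1 count (adjusted p = 0.000173), by edgeR. With the library number as a block in the edgeR fit it passed on both coatings. The values were -0.34 (SE 0.0482, adjusted p = 0.000914) without and -0.34 (SE 0.0359, adjusted p = 3.9e-09) with fibronectin.

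The nuclear receptor genes among the members, Pparg and Nr1h3, did not pass the test. Pparg measured 6.53, 7.01 and 5.93 FPKM in IgG and 6.35, 6.22 and 6.22 in anti-ITGA5 without fibronectin, and 5.69, 6.63 and 6.32 against 5.51, 6.62 and 5.67 with fibronectin. Its log2 fold changes were -0.05 (SE 0.0846, 95% interval -0.23 to 0.14) and -0.07 (SE 0.0953, interval -0.28 to 0.14), with adjusted p = 0.752 and 0.637 by edgeR. Nr1h3 measured 1.75, 2.32 and 2.61 against 1.65, 1.88 and 2.09 without fibronectin, and 2.83, 2.25 and 3.17 against 2.01, 1.88 and 2.69 with it. All these groups overlapped. The Nr1h3 log2 fold changes were -0.24 (SE 0.183, interval -0.64 to 0.17) and -0.33 (SE 0.173, interval -0.70 to 0.05), with adjusted p = 0.402 and 0.181, at 65 to 148 counts per library. Without anti-ITGA5 library 3 the Nr1h3 value with fibronectin was -0.49 and passed (adjusted p = 0.037 by edgeR). Over all fits with 1 library left out it ran from -0.49 to -0.22, and the adjusted p was 0.456 without IgG library 3.

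**Figure D3:**
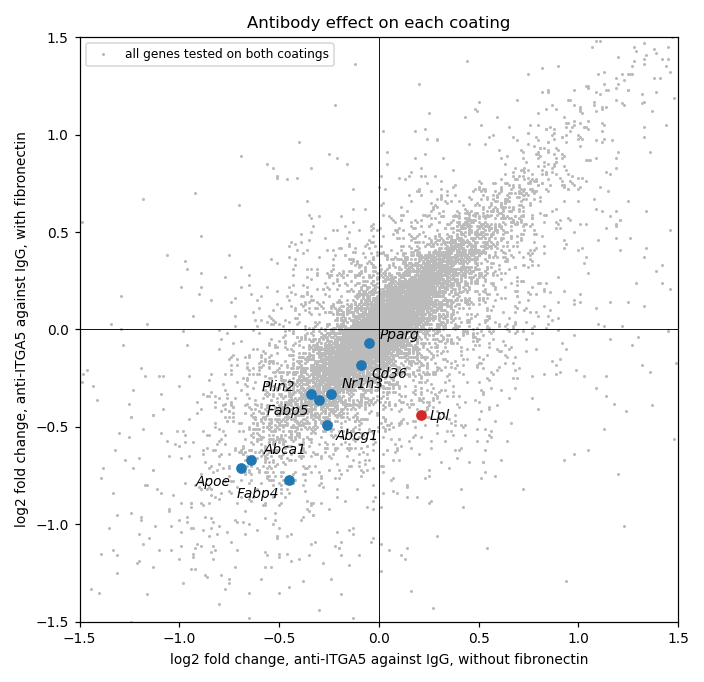
Log2 fold change of anti-ITGA5 against IgG without fibronectin (horizontal axis) and with fibronectin (vertical axis) for 12681 genes tested on both coatings (grey points), with Lpl in red and the other 9 genes in blue. 131 genes lie outside the axes, which end at 1.5 log2 units; Lpl lies in the lower right (0.21, -0.44) and the other 9 genes in the lower left.

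Leaving out the library that stood apart, library 2 of anti-ITGA5 without fibronectin, gave log2 fold changes without fibronectin of 0.21 for Lpl, -0.58 for Apoe, -0.64 for Abca1, -0.44 for Fabp4 and -0.30 for Fabp5. The last 4 again passed the edgeR test (adjusted p = 2.7e-07, 0.00809, 0.000914 and 0.000422). The Plin2 value was -0.19 in place of -0.34, and the Cd36 value -0.03 in place of -0.09. The Lpl difference between coatings was again -0.65 (SE 0.0644).

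In the main edgeR fit, fibronectin coating in IgG raised Fabp4 alone among the 9 other members. Its log2 fold change was 0.44 (SE 0.0682, adjusted p = 0.00628 by edgeR), and its libraries did not overlap. Without IgG library 1 of either coating, or with limma on FPKM, this call was lost, and DESeq2 gave Fabp4 no adjusted p. Of all 12925 genes tested, 0.325% were higher and 0.124% lower. For Fabp5 the log2 fold change was 0.21 (SE 0.0524), with an adjusted p of 0.105 by edgeR and 0.00493 by DESeq2. Without IgG library 2 of the uncoated plates it was 0.27 and passed by edgeR (adjusted p = 0.0298). Its libraries did not overlap either, so 2 of 9 members were separate, against 15.4% of all genes. The remaining values ran from -0.07 (Pparg) to 0.30 (Abcg1), with Cd36 at 0.12, Nr1h3 at 0.29, Plin2 at 0.01, Abca1 at 0.02 and Apoe at -0.05.

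Fibronectin coating in anti-ITGA5 gave no call among the 9 members or among all 12863 genes tested by edgeR (0% lower and 0% higher), while 461 genes had an unadjusted p under 0.05. These libraries include the one that stood apart. The biological coefficient of variation between replicates, estimated by edgeR, was 0.0902 here and 0.0451 for fibronectin in IgG. The lack of calls therefore does not show that the coating had no effect. Of the 9 members 1 had an unadjusted p under 0.05 (Fabp5, log2 fold change 0.15, SE 0.0582), and DESeq2 called 0 of the 9. Fabp5 was also the 1 member whose libraries did not overlap (9.74% of all genes). The log2 fold changes of the 9 ran from -0.09 (Pparg) to 0.21 (Nr1h3).

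The antibody effect was tested for a difference between coatings in 1 fit over all 12 libraries. None of the 9 members passed (edgeR; 1 had an unadjusted p under 0.05, and DESeq2 called 0), where 0.0223% of 13455 genes did. Their differences, the effect with fibronectin minus the effect without it, ran from -0.32 (Fabp4) to 0.0023 (Plin2), and 8 of 9 were below 0. The 95% intervals were wide for Abca1 (-0.63 to 0.57) and Abcg1 (-0.89 to 0.43), and narrower for Fabp5 (-0.24 to 0.13), Apoe (-0.26 to 0.21) and Pparg (-0.30 to 0.25).

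The members also differed in their spread among libraries of a group. For Plin2, Abca1, Abcg1 and Nr1h3, library 3 was the highest in all 4 groups. The same was true of 3.26% of 13455 genes. The highest library exceeded the lowest within a group by up to 1.9 times for Abcg1 and 1.64 times for Abca1, against at most 1.14 times for Lpl and Fabp5. The labels do not say what the library numbers stand for.

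**Figure D4:**
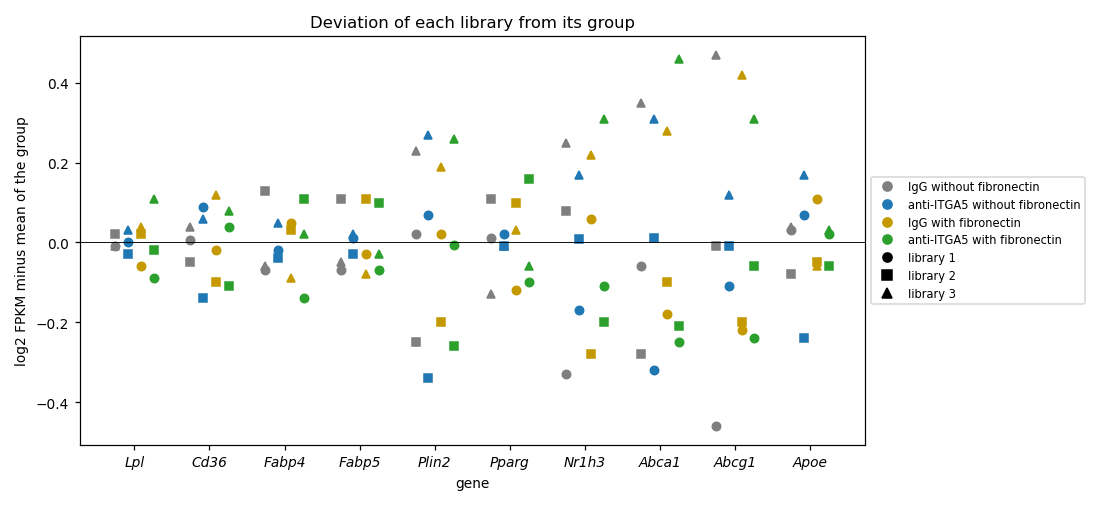
Log2 FPKM of each library minus the mean of its group (vertical axis) for the 10 genes, with colours for the 4 groups and a circle, square and triangle for libraries 1, 2 and 3. The triangles of Plin2, Nr1h3, Abca1 and Abcg1 are the highest point in all 4 groups, and Lpl stays close to 0.

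The genes around the members were taken as 7 lists with 128 genes in all, none of them a member. Upon ITGA5 neutralization without fibronectin 23 of 98 tested genes fell and 3 rose, and with fibronectin 31 of 97 fell and 7 rose, by edgeR. The shares were 23.5% lower and 3.06% higher without and 32% lower and 7.22% higher with fibronectin, beside the shares over all genes given above. With 1 library left out, the genes that fell ran from 10 to 28 and those that rose from 2 to 7 without fibronectin. With fibronectin they ran from 21 to 32 and from 4 to 6. The medians of the log2 fold changes were -0.10 and -0.09. Neither coating comparison called any of these genes by edgeR, and the difference between coatings called none. An unadjusted p under 0.05 was found for 12 of 96 in IgG, 5 of 98 in anti-ITGA5 and 1 of 98 for the difference. Over all genes tested these were 1266 of 12925, 461 of 12863 and 386 of 13455. DESeq2 called 2 as higher for fibronectin in IgG (Npc2 and Tspo, both of cholesterol trafficking) and none in the other two. By edgeR, leaving out IgG library 3 of the uncoated plates gave 2 (Cebpb and Tspo), and leaving out IgG library 2 of the coated plates gave 2 (Fabp7 and Tspo), all higher with fibronectin.

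Partners of LPL and other lipases fell in 5 of 12 tested genes and rose in 1 on each coating. The fallen genes were Abhd5 and Pnpla2 (droplet lipolysis), Lipa (the lysosomal acid lipase), Lipe (hormone-sensitive lipase) and Furin, a protease that cleaves LPL among many substrates. Lipa measured 536 ± 9.58 FPKM in anti-ITGA5 and 709 ± 4.31 in IgG with fibronectin (SD, n = 3; log2 fold change -0.41, adjusted p = 7.1e-06 by edgeR, and -0.38, adjusted p = 0.000433, without fibronectin). Furin had log2 fold changes of -0.38 and -0.40, and Lipe -0.45 (adjusted p = 0.0218) and -0.38 (adjusted p = 0.0483). The gene that rose was Lmf2, a relative of the lipase maturation factor, at 0.45 (adjusted p = 0.000351) and 0.53 (adjusted p = 7.7e-05).

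Uptake receptors and carriers fell in 4 of 16 tested genes without fibronectin (Cd68, Lrp1, Marco and Vldlr) and in 8 of 16 with it (these 4 with Fabp3, Lrp8, Scarb1 and Sort1), and none rose. For Marco, a scavenger receptor, the log2 fold changes were -0.76 (adjusted p = 0.0199) and -0.47 (adjusted p = 0.0165) by edgeR. Vldlr, the VLDL receptor, had -1.73 and -1.39 but at very low levels (0.171 ± 0.0376 and 0.164 ± 0.0236 FPKM in IgG, SD, n = 3). Cd68 is also 1 of the 10 macrophage markers, and Lipe 1 of the 8 adipocyte markers.

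Droplet and esterification genes fell in 3 of 17 without fibronectin and 5 of 16 with it, and 1 rose on each. Lpin1, a phosphatidate phosphatase of triglyceride synthesis, had log2 fold changes of -0.55 (adjusted p = 0.00351) and -0.68 (adjusted p = 0.000314). Hilpda, an inhibitor of droplet lipolysis, had -0.47 (adjusted p = 0.0168) without and -0.57 (adjusted p = 0.00192) with fibronectin, and Gpat3, an acyltransferase, -0.57 (adjusted p = 0.0475) with it. Dgat1, which makes triglyceride, rose by 0.36 (adjusted p = 0.0312) without fibronectin, and Acsl5, an acyl-CoA synthetase, by 0.15 (adjusted p = 0.0322) with it, all by edgeR.

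Of the PPAR and LXR regulators, 3 of 13 fell without fibronectin and 4 of 13 fell and 1 rose with it. Rxra, the partner of both receptors, fell by 0.37 on the log2 scale (adjusted p = 0.00241) without and by 0.33 (adjusted p = 0.000609) with fibronectin. Cebpa had -0.42 on each coating (adjusted p = 0.0298 and 0.000918), and with fibronectin Cebpb had -0.47 (adjusted p = 5.8e-05) and Ppard, the related PPAR delta receptor, -0.20 (adjusted p = 0.0306, lost by DESeq2 and with any library but anti-ITGA5 library 2 left out). Med1, a coactivator subunit, rose by 0.18 (adjusted p = 0.0381). Of the targets other than the members, 3 of 15 and 4 of 15 fell and none rose: Scd2, a fatty acid desaturase, had -0.63 (adjusted p = 0.0116) and -0.68 (adjusted p = 0.00537), Pltp, the phospholipid transfer protein, -0.41 (adjusted p = 0.022) and -0.38 (adjusted p = 0.00484), and Mylip, which degrades the LDL receptor, -0.48 (adjusted p = 0.00263) with fibronectin, by edgeR.

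Cholesterol trafficking genes fell in 5 of 16 on each coating, and 1 rose with fibronectin. Npc2, which moves cholesterol out of lysosomes, measured 153 ± 15.1 FPKM in anti-ITGA5 and 212 ± 1.04 in IgG without fibronectin, and 170 ± 13.4 and 231 ± 9.09 with it (SD, n = 3), log2 fold changes of -0.47 (adjusted p = 0.000665) and -0.45 (adjusted p = 7.0e-05). Stard4, a sterol carrier, had -0.27 (adjusted p = 0.0489) without fibronectin and Cav1, a caveolar coat protein, -0.81 (adjusted p = 0.0416) with it. Ch25h, cholesterol 25-hydroxylase, rose by 1.96 (SE 0.318, adjusted p = 0.000643) with fibronectin, from 0.327 ± 0.0428 to 1.29 ± 0.261 FPKM. Of 16 tested beta oxidation genes none fell, and 1 (6.25%) rose without and 3 (18.8%) with fibronectin, beside 11% and 14.4% of all genes. Eci1, an enoyl-CoA isomerase, rose by 0.50 (adjusted p = 0.00561) and 0.58 (adjusted p = 0.000375), and Hadha and Hadhb, the subunits of the trifunctional protein, rose with fibronectin (Hadhb by 0.19, adjusted p = 0.0228).

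For each list and coating the 2 largest rises and 2 largest falls called were followed further. Of the 15 such calls without fibronectin, 6 held with each of the 6 libraries left out in turn (Furin, Lmf2, Lpin1, Rxra, Npc2 and Eci1). Of the 18 with fibronectin, 11 did (Lipa, Furin, Lmf2, Lpin1, Cebpb, Cebpa, Scd2, Mylip, Npc2, Ch25h and Eci1). Without fibronectin, leaving out IgG library 1 lost Lipe, Vldlr, Hilpda, Dgat1, Cebpa, Scd2 and Stard4, IgG library 2 lost Marco, Dgat1, Scd2, Pltp and Stard4, and IgG library 3 lost Lipe, Marco, Hilpda, Dgat1, Cebpa and Pltp. Leaving out anti-ITGA5 library 1 lost Lipe, Marco, Hilpda, Cebpa, Pltp and Stard4, library 2 lost Dgat1, and library 3 lost Lipe, Pltp and Stard4. With fibronectin, leaving out IgG library 1 lost Gpat3, Med1 and Hadhb, IgG library 2 lost Marco, Acsl5, Med1 and Cav1, and IgG library 3 lost Vldlr, Gpat3, Acsl5, Med1, Cav1 and Hadhb. Leaving out anti-ITGA5 library 1 lost Marco, Gpat3, Acsl5, Med1, Cav1 and Hadhb, library 2 lost Vldlr, Gpat3, Acsl5, Cav1 and Hadhb, and library 3 lost Gpat3 and Med1. DESeq2 called 12 of the 15 (not Lipe, Dgat1 and Pltp) and 14 of the 18 (not Gpat3 and Cav1), and gave Vldlr and Ch25h with fibronectin no adjusted p. Of the 5 further calls of these genes on the other coating, those of Lipa, Hilpda, Rxra and Pltp held with each library left out and by DESeq2. That of Lipe with fibronectin was lost without library 1 or 2 of either antibody and by DESeq2.

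**Figure D5:**
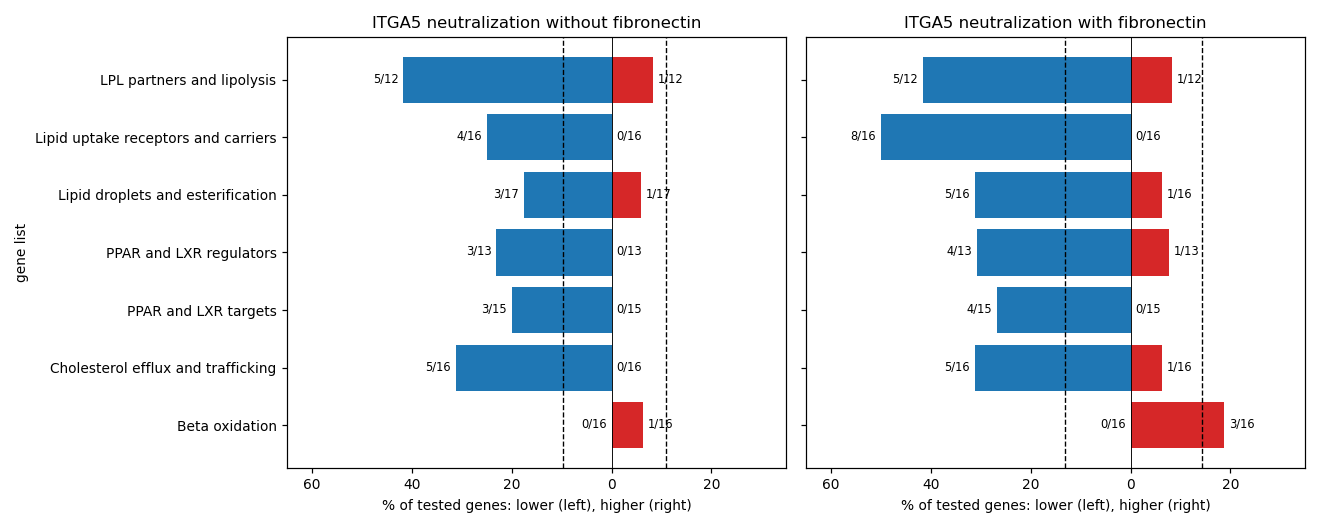
Share of the tested genes of 7 lists that fell (blue, to the left) or rose (red, to the right) upon ITGA5 neutralization without and with fibronectin, in percent, with the counts beside the bars. Dashed lines mark the shares over all genes tested (9.79% and 11% without, 13.2% and 14.4% with fibronectin), and 6 of the 7 lists reach past the left line on both coatings.

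The pattern of Lpl over the 12 libraries was compared with that of 11676 genes that had at least 10 counts in every library, by Pearson's r of log2 CPM. Because 4 groups of 3 libraries share their conditions, r is a description of how the groups line up. The most similar genes were Ubl7 (r = 0.875), Cybb (0.875, a subunit of the phagocyte NADPH oxidase), H2-Ab1 (0.841) and Cd74 (0.827), both of MHC class II, and Cyb5r3 (0.823), and 4 of these 5 were also among the first 5 on log2(FPKM + 1). Cd74 measured 6.1 ± 1.19 and 6.84 ± 0.549 FPKM in IgG and anti-ITGA5 without fibronectin and 13.7 ± 1.38 and 11.8 ± 1.24 with it (SD, n = 3). The 5 were picked by their values in these libraries, so no test is given for them. Among the members r with Lpl was 0.64 for Fabp4, 0.573 for Fabp5, 0.564 for Nr1h3, 0.534 for Cd36, 0.524 for Abcg1, 0.276 for Abca1, 0.213 for Plin2, 0.162 for Apoe and -0.134 for Pparg, against a median of 0.00282 over all genes compared.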

How the data were processed

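RNA of 12 BMM libraries was poly(A)-selected and sequenced as paired-end reads. Per the methods and the submitters' processing notes, the authors aligned reads with TopHat2 2.0.9 to mm10 (GRCm38.p6) and made the deposited counts per gene with HTSeq 0.6.1 (Cufflinks 2.1.1 is also named). Strand setting and annotation release are not given in the sources used here. The deposited FPKM values divide counts by gene length and library size, and were used for levels. Counts were tested with edgeR 4.0.16 (R 4.3.3; filterByExpr, minimum count 10 and total 15; TMM; quasi-likelihood test; Benjamini-Hochberg over all genes; adjusted p of at most 0.05), with SEs from the F statistic and 95% intervals from its t quantiles. Each comparison used its own 6 libraries, the difference between coatings all 12. Alternatives were DESeq2 1.42.0, limma 3.58.1 on log2(FPKM + 1 or + 0.1), other scalings, filters and fits, and leaving out each library. The fits were tested on simulated data. No sample column was left out (0). Members and lists were chosen with earlier results of these data known. Genes named were the members, the 2 largest rises and falls called per list and antibody comparison, the 5 genes most like Lpl, and Itga5. Other called list members were named after their values were seen.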

Additional observations from a re-analysis of the deposited data

Results flagged for a closer look

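The antibody effect on Lpl differed between coatings: the effect with fibronectin minus the effect without it was -0.65 on the log2 scale. All 3 anti-ITGA5 libraries lay above the 3 IgG libraries without fibronectin, and all 3 lay below with fibronectin. This difference is also the property by which Lpl was picked, so no test is given.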

How the results depend on the processing

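Over 16 alternatives for each antibody and coating comparison, and 21 for the difference between coatings, the Lpl values kept their sign, except fibronectin in anti-ITGA5 (0.06, or -0.0035 to 0.10 with 1 library left out). The count of other members called was 4 without fibronectin (3 to 5 with 1 library left out, 2 by limma without a filter, which lost Apoe and Abca1), 6 with fibronectin (3 to 8 with 1 library left out, 3 without anti-ITGA5 library 1; 3 by each of the limma fits, which lost Abca1, Plin2 and Cd36) and 1 for fibronectin in IgG (0 to 2 with 1 library left out, 0 by each limma fit, 3 with every gene of at least 1 count), and 0 throughout for the other two. Total counts or all 12 libraries in 1 fit gave 4 with fibronectin, and so did DESeq2.

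Same-numbered libraries deviated together with correlations of -0.0196 to 0.149, not over 0.1 in every pair, so the numbers were not taken as pairs. As a hint from the data, 6 of 6 libraries correlated best with their own number in each of 3 comparisons, but 2 of 6 for fibronectin in anti-ITGA5. With the replicate block the calls were 5, 7 and 3 in place of 4, 6 and 1, and 0 for the other two. The block added Plin2 without fibronectin (adjusted p = 0.000914), Abcg1 with it (0.000876), and Cd36 and Fabp5 for fibronectin in IgG (0.0125 and 8.5e-06), by edgeR, and changed no other member's call. For fibronectin in IgG it called 8 list genes as higher in place of 0 (Cebpb, Cxcl16, Fabp3, Fabp7, Marco, Msr1, Npc2 and Tspo). The shares of all genes called with the block and in the other alternative fits are not given here. The counts from those fits therefore have no background to be set against.

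The following values did not pass the test, and their sign turned. With 1 library left out, Pparg ran from -0.11 to 0.01 and Abcg1 from -0.46 to 0.0062 upon neutralization without fibronectin; Plin2 from -0.10 to 0.14 (-0.0069 with total counts) and Abca1 from -0.13 to 0.22 for fibronectin in IgG; Cd36 from -0.04 to 0.08, Plin2 from -0.13 to 0.15, Apoe from -0.18 to 0.0047, Abcg1 from -0.09 to 0.20 and Abca1 from -0.27 to 0.17 for fibronectin in anti-ITGA5. Abca1 there was also 0.02 by DESeq2 and with every gene of at least 1 count, 0.00027 with DESeq2 size factors, and 0.0063 and 0.0056 by limma at pseudocounts of 1 and 0.1 (0.0063 without a filter). For the difference between coatings Fabp5 ran from -0.11 to 0.0035, Pparg from -0.10 to 0.03, Plin2 from -0.14 to 0.15, Apoe from -0.13 to 0.06, Abca1 from -0.28 to 0.16, Abcg1 from -0.50 to 0.0085 and Nr1h3 from -0.25 to 0.05. The cause was not tested.

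List genes that fell without fibronectin were 23 (10 to 28 with 1 library left out, 10 without IgG library 1, 14 without IgG library 2, 11 without IgG library 3 or anti-ITGA5 library 1; 13 by limma, 5 without its filter, 9 at an adjusted p of at most 0.01) and 31 with fibronectin (13 by limma without a filter, 18 at 0.01). Those that rose ranged from 1 to 8 and from 4 to 8. With every gene of at least 1 count, 5 list genes rose for fibronectin in IgG and 2 (Cxcl16 and Marco) in anti-ITGA5, in place of 0. Counts per library were 65 to 148 for Nr1h3 and 110 to 294 for Abcg1, the lowest of the members.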
